A study of Mus musculus with 2 samples.

Results

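The GATA factors and the proteins that work with them were followed in purified collecting ducts of adult mice, on arrays from kidneys in which Gata2 had been deleted (Gata2 CKO) and from wild-type (WT) kidneys. The set comprises 10 genes: the GATA factors Gata1, Gata2, Gata3 and Gata4, the FOG cofactors Zfpm1 and Zfpm2, the basic helix-loop-helix factors Tal1 and Lyl1, and the LIM-domain partners Lmo4 and Ldb1. All probes that the array annotates with one of these names and that are not controls were taken, which gave 16 probes of 41174. The CKO mice had the genotype Gata2flox/-::Pax8-rtTA::Tet-Cre, with 1 floxed and 1 null allele of Gata2. They received doxycycline for 4 weeks from the age of 4 weeks and were 8 weeks old. The WT mice were also 8 weeks old, their label names no transgene, and it does not state outright that they received doxycycline. Both samples are labelled as mixed in sex. Pax8-rtTA drives the recombinase in renal tubules in general rather than in the collecting duct alone, and cells outside the tubules of CKO mice carry the null allele too. Cells were purified with the lectin DBA, which binds collecting duct epithelium, and magnetic beads, and 50 ng of total RNA was labelled per array. Per the design text 3 mice of each genotype were used, and there is 1 one-colour array for each genotype. The differences therefore have no replicate check, and mice could not be tested against each other.

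GATA factors are zinc finger proteins that bind DNA at a short motif with the core letters GATA. FOG proteins bind the amino-terminal zinc finger of a GATA factor and recruit corepressors or coactivators. In blood cells, GATA1 or GATA2 joins a complex in which TAL1 or LYL1, paired with an E protein, binds a neighbouring E-box motif, while LIM-only proteins and LDB1 form the bridge between them. In the kidney, Gata3 is required for the growth of the ureteric bud, from which the collecting duct forms, and Gata2 is expressed in the collecting duct of the adult, where it has been linked to the water channel gene Aqp2.

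Both arrays read Gata2 with a pair of probes of 60 bases. The first 30 bases of each are shown because the check of the deletion rests on them, and no letters are capitalised since no part of a probe is singled out.
Gata2 probe 1: aactgcataagcttaacccgctgatgagtg
Gata2 probe 2: ctagtacccgcataagagaagaatcggcag
Per the files, probe 1 lies at chr6:88156362-88156421 and probe 2 at chr6:88156835-88156894 (mm9, plus strand), at positions 2578 and 3051 of the transcript, 473 bases apart. The labels do not say which exons are removed. Where these stretches lie outside the deleted part, the probes check nothing about the labels. Whether they lie in coding sequence or in an untranslated region was not analysed here.

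The deleted gene was still read strongly on the CKO array. At probe 1, Gata2 had a signal of 2194 on the CKO array and 3432 on the WT array, and at probe 2 it had 2424 on the CKO array and 3943 on the WT array. Signals here are the scanner software's processed intensities, and each array was then set to its own 75th percentile, 250.1 on the CKO array and 314 on the WT array, before log2 values were compared. On that scale the CKO level was 80.3% of the WT level at probe 1 and 77.2% at probe 2, with log2 differences, CKO minus WT throughout, of −0.32 ± 0.20 and −0.37 ± 0.20. The errors given after ± are the scanner software's errors of the spots, combined over both arrays, and do not cover mice or purification. Both probes were lower on the CKO array, and they differed from each other by 0.06. Over 5309 genes with several probes read on both arrays, probes of 1 gene had a root mean square standard deviation of 0.27. The Gata2 differences are only somewhat larger than this value. It was taken over genes of every brightness, and it measures disagreement between probes, not the error of a difference that both probes share. All probes read on both arrays were also split by mean signal into 5 brightness groups of about equal size. Among the 5017 probes of the brightest group, where Gata2 lies, 6.06% had a lower difference than probe 1 and 4.60% a lower one than probe 2.

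**Figure D1:**
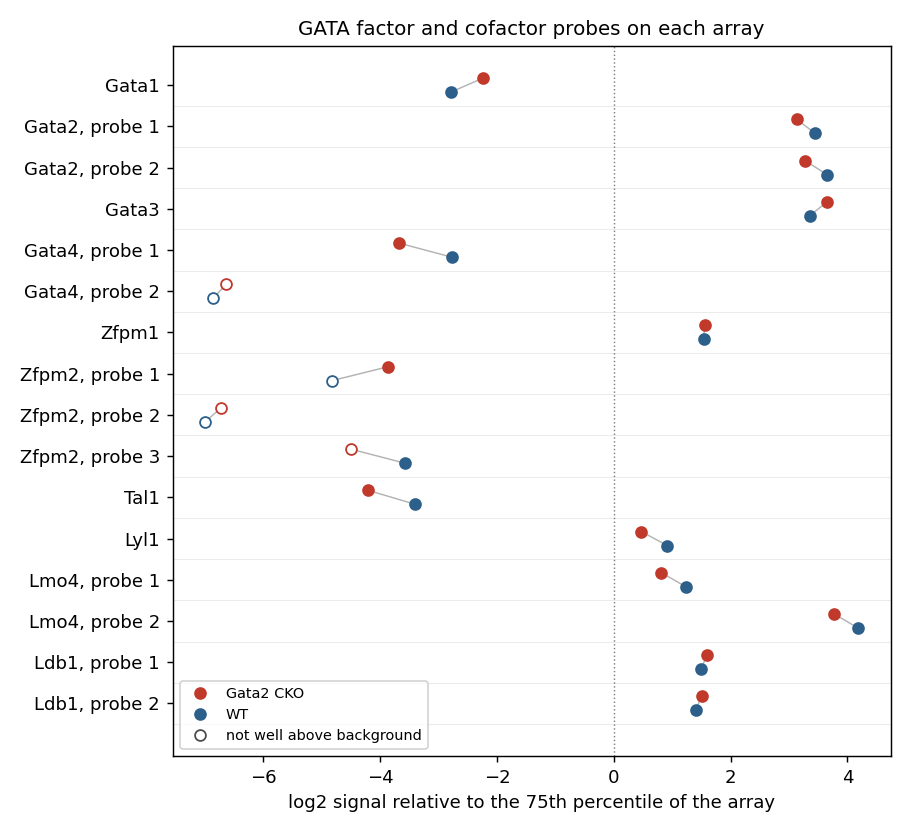
Level of each probe of the 10 genes on the Gata2 CKO array (red, upper point) and on the WT array (blue, lower point), as log2 signal relative to the 75th percentile of the array; open points were not well above background. Gata2, Lyl1 and Lmo4 probes sit to the left on the CKO array, Gata3 and Gata1 to the right, and the Zfpm1 and Ldb1 points nearly coincide.

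Of the 16 probes, 12 were well above background by the scanner software's flag on both arrays, 2 on 1 array only and 2 on neither. Of the 14 read on at least 1 array, 8 were lower and 6 higher on the CKO array, against 41.8% of all 26618 such probes that were lower and 58.2% that were higher. At least 1.5-fold lower were 3 of these 14, against 5.92% of all probes, and at least 1.5-fold higher was 1, against 6.83%. The higher one and 1 of the 3 lower ones are Zfpm2 probes read on 1 array only, so the filter fixed their direction. Of the 12 read on both arrays, 7 were lower and 5 higher. At 1.5-fold, 2 of the 12 were lower and 0 higher, against 1261 and 1458 of all 25086 such probes. None of the 14 was 2-fold apart, against 2.51% of all probes lower and 1.39% higher by that much. Over the 12 probes read on both arrays the median difference was −0.34, and over all 25086 such probes it was 0.06. The differences of the 12 ran from −0.90 to 0.55. The spread of all probes is wider where the signal is dim: its central 90% ran from −0.75 to 0.79 in the dimmest of the 5 groups and from −0.36 to 0.44 in the brightest. Levels of different probes cannot be ranked against each other on an array, so no order of the genes by level is given.

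**Figure D2:**
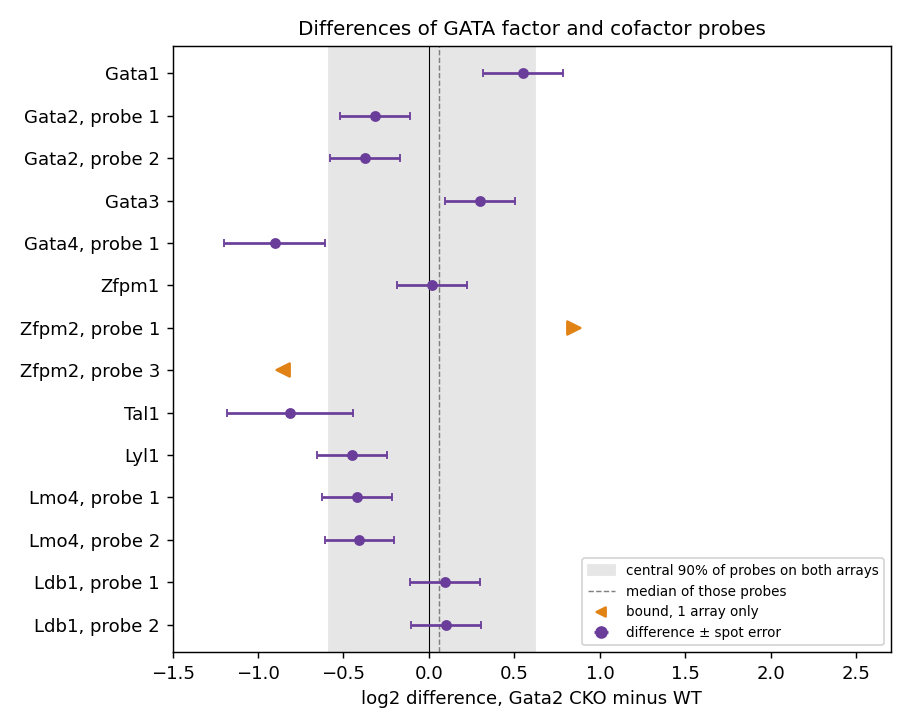
Log2 difference, Gata2 CKO minus WT, of each probe read on at least 1 array. Points are differences with the spot error as bars, orange triangles are bounds for probes well above background on 1 array only, and the grey band is the central 90% of all probes read on both arrays, −0.59 to 0.62. The Gata4 and Tal1 points and both Zfpm2 bounds lie outside the band.

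Gata3, the other GATA factor of the collecting duct lineage, differed in the opposite direction to Gata2. Its only probe, at chr2:9778983-9779042 (mm9, minus strand) and position 2877 of the transcript, had a signal of 3142 on the CKO array and 3207 on the WT array. The first 30 of its bases are given because it alone carries the reading of this gene.
Gata3 probe: ataaactagattgctttcagttgacttaag
The unscaled signals of Gata3 were nearly equal, and after scaling to the 75th percentile the CKO array was higher by 0.30 ± 0.20, or 123% of the WT level. In the brightest group, 89.3% of probes had a lower difference. The sign depends on the scaling: with spike-in control transcripts set equal, a scaling that moves every difference by −0.55, Gata3 was at −0.25, and on any scale of this kind it lay 0.24 above the median of all probes while the Gata2 probes lay 0.37 and 0.43 below it.

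Gata1, the factor of red cell, megakaryocyte and mast cell development, was dim on both arrays. Its probe, at chrX:7536849-7536908 (mm9, minus strand), was printed 10 times, which gives the only repeated reading of a measured gene of this set. The 10 spots had signals from 45.8 to 65.6 with a median of 50.5 on the CKO array, and from 38.0 to 58.7 with a median of 44.6 on the WT array. The ranges of the arrays overlapped. After scaling, the CKO spot was higher at 10 of 10 places, by 0.31 to 0.69, and the standard deviation of these differences was 0.13 over the 8 places with no outlier flag. The probe as a whole was higher on the CKO array by 0.55 ± 0.23, with 92.1% of all probes lower, and at 0.00 with spike-in scaling. Repeated spots share the same RNA and do not stand for mice.

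**Figure D3:**
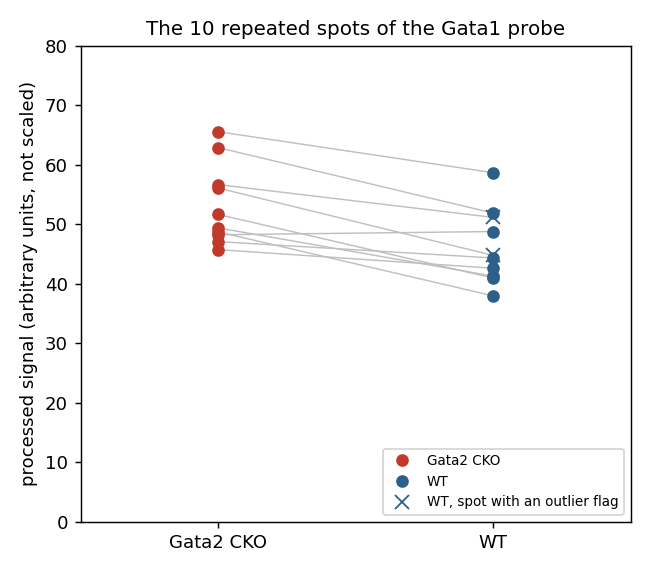
Processed signal of the 10 repeated spots of the Gata1 probe on the Gata2 CKO array (left) and the WT array (right), before scaling; lines join spots at the same place and crosses mark WT spots with an outlier flag. The spots lie between 45.8 and 65.6 on the CKO array and between 38.0 and 58.7 on the WT array.

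Gata4, known from the heart, gut and gonads, was read by 1 of its 2 probes. The probe at position 2160 of the transcript had a signal of 19.5 on the CKO array and 45.9 on the WT array, with a difference of −0.90 ± 0.30, or 53.5% of the WT level. The other probe, at position 2938 and printed 10 times, was well above background at 0 of 10 spots on either array, with signals from 2.32 to 4.11 on the CKO array and from 2.41 to 3.19 on the WT array. The probe that was read is placed in the file on only 22 bases, chr14:63817752-63817773 (mm9, minus strand). The other lies at chr14:63818147-63818206, so that the probes run in one order along the transcript and in the other along the minus strand. The reading of Gata4 therefore rests on 1 dim probe that the second one does not share and whose placement is incomplete. The difference was −0.19 with normexp background correction, which adds an offset of 50 to all signals.

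The FOG genes gave 1 clear reading and 1 contradiction. Zfpm1, which encodes FOG1, a partner of GATA1 and GATA3 in blood cells, had a signal of 736 on the CKO array and 912 on the WT array at its probe, chr8:124861053-124861112 (mm9, plus strand). Its difference was 0.02 ± 0.20, smaller than the spot error, and its sign turned with 4 of the 6 other settings, among them quantile normalization at −0.01 and cyclic loess at −0.02. Zfpm2, which encodes FOG2, a partner of GATA4 in heart and gonad, has 3 probes, whose first 30 bases are shown because they disagree.
Zfpm2 probe 1: caatggacttcaaagaactatctcttcagt
Zfpm2 probe 2: ttaaactagtttgccaaccaatataatgtt
Zfpm2 probe 3: tcaaatgaactaactgagttactaaagaaa
Probe 1, designed on a cDNA clone and placed at chr15:40606107-40606166 (mm9, plus strand), had 17.2 on the CKO array and 11.1 on the WT array. Only its CKO signal was well above background, which makes it at least 1.80-fold higher on that array. Probe 3, on the RefSeq transcript at chr15:40935115-40935174, had 11.1 on the CKO array and 26.3 on the WT array. Only its WT signal was well above background, which makes the CKO signal at least 1.81-fold lower. Probe 2, on another cDNA clone at chr15:40703938-40703997, had 2.37 on the CKO array and 2.47 on the WT array and did not pass on either array. Probes 1 and 3 lie 329008 bases apart, and signals this close to background gave no direction for the gene. A bound sets the brighter array against the lowest signal well above background on the other, 11.56 on the CKO array and 12.04 on the WT array, or against the dim probe's own signal where that is higher.

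Tal1 and Lyl1, related factors that can stand in for each other in part in blood and vessels, were both lower on the CKO array. Lyl1, with a probe at chr8:87228531-87228590 (mm9, plus strand), had a signal of 346 on the CKO array and 594 on the WT array. Its difference was −0.45 ± 0.20, or 73.3% of the WT level, and 4.66% of probes in its brightness group were lower. Tal1 had 13.5 on the CKO array, close to the lowest signal that counts as well above background there, and 29.9 on the WT array, and its difference was −0.81 ± 0.37.
Tal1 probe: cctataggccaacactgcgggcgtgtgact
The Tal1 probe, shown by its first 30 bases, was designed on an older mRNA record and lies at chr4:114744223-114744283 (mm9, plus strand), a stretch of 61 bases for a probe of 60. With normexp, Tal1 was at −0.01 and Lyl1 at −0.42, so the Lyl1 difference kept its size and that of Tal1 did not.

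Lmo4, a LIM-only protein of epithelial and neural tissues, was lower on the CKO array at both of its probes. Its probes are shown because they read different parts of the transcript.
Lmo4 probe 1: tcatcaatggccatttgaattcacttcaga
Lmo4 probe 2: attgtatctctgtaaaatacaatgtatgta
Probe 1 is placed at chr3:143852266-143856915 (mm9, minus strand), a span of 4650 bases for a probe of 60, and probe 2 lies within 60 bases at chr3:143851697-143851756. Probe 1 had a signal of 440.3 on the CKO array and 739.8 on the WT array, and probe 2 had 3416 on the CKO array and 5689 on the WT array. Both were lower on the CKO array, by −0.42 ± 0.20 at probe 1 and −0.41 ± 0.20 at probe 2, and they differed from each other by 0.01. The CKO level was 74.8% and 75.5% of the WT level. Within their brightness groups, 5.24% and 4.07% of probes were lower. Under the 6 other settings probe 1 ran from −0.97 to −0.40 and probe 2 from −0.95 to −0.41, the lowest with spike-in scaling.

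Ldb1, the dimerising protein that ties LIM-only proteins to their partners, was close to the middle of all probes. Its signals were 754 and 708 on the CKO array and 888 and 830 on the WT array, at chr19:46107610-46107669 and chr19:46107487-46107546 (mm9, minus strand). The differences, 0.09 ± 0.20 and 0.10 ± 0.20, were smaller than the spot error, and the sign turned with spike-in scaling, at −0.45 and −0.44. The difference of Lmo4, by contrast, was larger than its spot error at each probe.

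**Figure D4:**
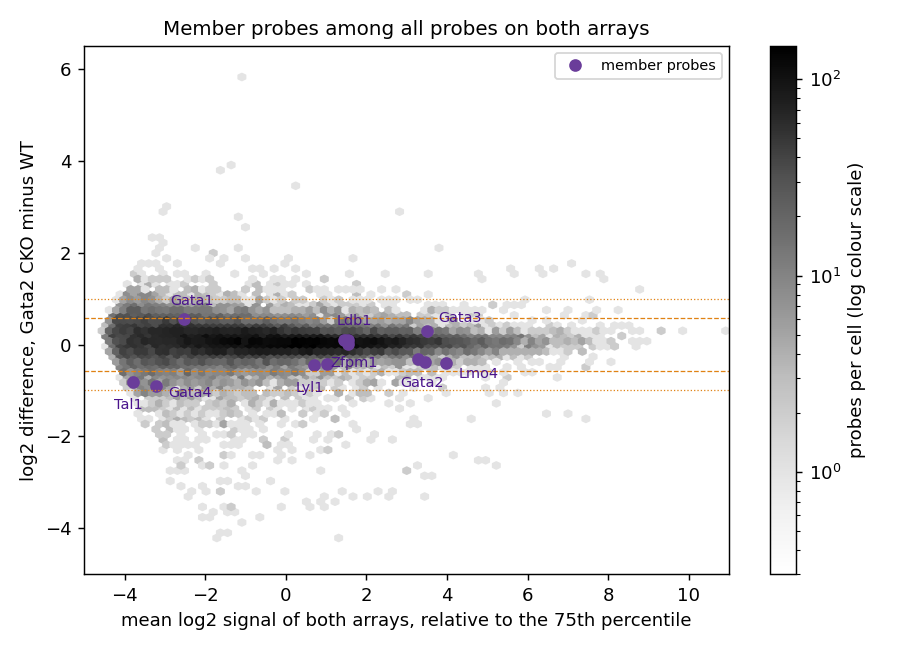
Log2 difference, Gata2 CKO minus WT, against the mean log2 signal of both arrays, for all 25086 probes well above background on both (grey cells, darker where more probes fall) and for the 12 member probes (purple). Dashed and dotted lines mark 1.5-fold and 2-fold. Tal1 and Gata4 lie among the dim probes, where the spread is wide. Gata2 and Lmo4 lie on the lower side of the brighter ones, with other probes below them.

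Most partner genes outside the set were less than 1.5-fold apart. Values are per gene, each read by its brightest probe, and the median of all 18798 genes was 0.05. By this rule 6 of the 10 members were lower and 4 higher, with a median of −0.39, against 42.5% of all genes lower and 57.5% higher. The lower ones include Zfpm2, whose probes disagree and whose probe used here, read on the WT array only, could only count as lower. The median came to −0.37 over genes read on both arrays, to −0.17 with the mean over probes and to −0.0060 with normexp. Of the other genes with GATA-type zinc fingers, Trps1, a repressor, was at −0.22, and the probes of Gata5 and Gata6 were not well above background on either array. Of the 15 genes of the NuRD and CtBP corepressors, which FOG proteins recruit, 7 were lower and 8 higher, with a median of 0.04 and none at least 1.5-fold apart, against 6.43% of all genes lower and 6.84% higher by that much. The widest were Mta3 at 0.43, with 0.00 at its other probe, and the histone-binding protein gene Rbbp7 at −0.31. Of the 10 coactivators and modifiers, 5 were lower and 5 higher, with a median of −0.01 and none at least 1.5-fold apart, among them Crebbp, an acetyltransferase that acts on GATA factors, and Fbxw7, which marks GATA2 and GATA3 for degradation, each at −0.22. The other probes of Crebbp gave 0.19 and 0.43, and that of Fbxw7 gave −0.37.

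The lists of blood complex partners also had medians near 0. Of the 8 LIM-only, LIM-binding and SSBP genes, 6 were measured, 2 lower and 4 higher, with a median of 0.03. None was at least 1.5-fold apart, against 6.43% of all genes lower and 6.84% higher by that much. Ssbp2, which stabilises LDB1, was at −0.43 with 0.06 at its other probe, and Ssbp4 was at 0.20. Lmo3 and Ldb2 were not well above background on either array. Of the 12 E proteins and blood transcription factors, 9 were measured, 6 lower and 3 higher, with a median of −0.07. Among the lower ones, Erg was read on the WT array only and could only count as lower. By its brightest probe 1 was at least 1.5-fold lower, against 6.43% of all genes. That was Cbfa2t3, also called Eto2, a corepressor of the TAL1 complex, with a signal of 136 on the CKO array and 274 on the WT array and a difference of −0.68, and −0.69 at its other probe. The second probes of Runx1 and Fli1, blood and vessel factors, were further from 0 than the brightest ones: Runx1 was at 0.00 with −1.07 at its other probe, and Fli1 at −0.34 with −0.74, so the count rests on the choice of the brightest probe. Spi1, Klf1 and Gfi1b were not well above background on either array.

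The arrays also read genes known as GATA targets. Of the collecting duct genes linked to GATA2, Aqp2, the water channel that vasopressin inserts into the apical membrane, had a signal of 28085 on the CKO array and 41848 on the WT array, with a difference of −0.25. Avpr2, the vasopressin receptor that controls it, had 4132 on the CKO array and 7724 on the WT array, with a difference of −0.57. Neither gene was 1.5-fold apart. Both are also on the list of principal cell markers, of which 7 of 8 were lower, with a median of −0.34. Of 15 genes known as GATA targets in blood, mast or endothelial cells, 12 were measured, 10 lower and 2 higher, with a median of −0.40 that came to −0.077 with normexp. Only 8 of the 12 were read on both arrays, with a median of −0.33. Hdc, Pecam1, Cdh5 and Nos3 were read on the WT array only, so they could only count as lower. Of the 12, 5 were at least 1.5-fold lower, against 6.43% of all genes, and 1 at least 1.5-fold higher, against 6.84%, while 3 were at least 2-fold lower, against 2.86%. These counts of lower genes include Hdc at both folds and Cdh5 at 1.5-fold. The vessel gene Vwf had 14.7 on the CKO array and 63.1 on the WT array, a difference of −1.78, and the endothelin gene Edn1 had 25.0 on the CKO array and 95.7 on the WT array, a difference of −1.61. Hdc, the histamine-forming enzyme of mast cells, had 3.40 on the CKO array and 38.0 on the WT array and was at least 2.62-fold lower, and the endothelial cadherin Cdh5 had 6.69 on the CKO array and 24.6 on the WT array and was at least 1.70-fold lower. Higher were Kit, the stem cell factor receptor, at 0.63, with 1344 on the CKO array and 1094 on the WT array, and Epor, the erythropoietin receptor, at 0.51, with 2964 on the CKO array and 2607 on the WT array. Kit and Epor were named after their values were seen, and with spike-in scaling the median of all genes came to −0.50.

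The promoters of Gata2, Gata3 and both collecting duct targets are shown so that these values can be set beside the motif itself. They run from 250 bases before to 50 after a transcription start (RefSeq, GRCm38.p6), and capitals mark the GATA motif, searched on both strands as AGATAA or AGATAG or TGATAA or TGATAG, with each promoter printed in the direction of its gene.
Gata2 promoter 1: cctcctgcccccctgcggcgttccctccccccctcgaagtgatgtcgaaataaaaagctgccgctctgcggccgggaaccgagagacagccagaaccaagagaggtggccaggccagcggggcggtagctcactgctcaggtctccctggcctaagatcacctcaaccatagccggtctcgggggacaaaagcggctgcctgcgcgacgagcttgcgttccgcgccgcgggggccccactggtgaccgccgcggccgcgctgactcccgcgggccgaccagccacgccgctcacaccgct
Gata2 promoter 2: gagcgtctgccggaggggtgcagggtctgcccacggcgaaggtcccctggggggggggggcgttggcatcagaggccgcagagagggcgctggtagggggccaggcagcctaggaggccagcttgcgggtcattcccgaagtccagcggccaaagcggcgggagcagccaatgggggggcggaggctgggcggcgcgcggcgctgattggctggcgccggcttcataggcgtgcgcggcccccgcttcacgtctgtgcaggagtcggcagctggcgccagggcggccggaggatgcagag
Gata3 promoter: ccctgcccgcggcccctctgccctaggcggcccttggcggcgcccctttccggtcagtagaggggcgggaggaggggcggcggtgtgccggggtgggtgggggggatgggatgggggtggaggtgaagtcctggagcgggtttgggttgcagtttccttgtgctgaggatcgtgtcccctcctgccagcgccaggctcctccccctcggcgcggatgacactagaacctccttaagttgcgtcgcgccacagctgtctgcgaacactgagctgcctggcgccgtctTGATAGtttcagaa
Aqp2 promoter: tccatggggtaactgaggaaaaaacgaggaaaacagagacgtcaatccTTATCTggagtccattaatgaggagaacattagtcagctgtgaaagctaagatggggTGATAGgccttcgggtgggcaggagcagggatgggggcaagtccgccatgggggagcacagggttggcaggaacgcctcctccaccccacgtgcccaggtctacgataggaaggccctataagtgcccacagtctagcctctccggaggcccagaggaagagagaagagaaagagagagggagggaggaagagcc
Avpr2 promoter: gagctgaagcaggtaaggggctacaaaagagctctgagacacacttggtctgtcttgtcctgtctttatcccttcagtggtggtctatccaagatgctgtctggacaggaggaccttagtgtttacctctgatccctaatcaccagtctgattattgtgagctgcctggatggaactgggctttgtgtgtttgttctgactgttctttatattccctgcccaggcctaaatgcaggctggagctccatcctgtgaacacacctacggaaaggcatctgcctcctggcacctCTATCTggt
They lie at chr6:88193641-88193940 and chr6:88198414-88198713 (plus strand) for Gata2, chr2:9878551-9878850 (minus strand) for Gata3, chr15:99578806-99579105 (plus strand) for Aqp2 and chrX:73891852-73892151 (plus strand) for Avpr2. The Aqp2 promoter holds the motif in 2 places, beginning 202 and 145 bases before the start, and Avpr2 and Gata3 hold it in 1 place each, beginning 41 and 36 bases after it. Neither Gata2 promoter holds it. Of 32851 mouse promoters of this length 29.8% hold the motif at least in 1 place and 7.77% in 2 or more. The table had promoters of 8 members, 14 in all, of which 3 held the motif: that of Gata3, 1 of 2 of Tal1 and 1 of 3 of Ldb1. The E-box CANNTG, bound by TAL1 and LYL1 with an E protein, occurred in 8 of the 14, against 72.3% of all promoters. A match describes the letters in this window only, and the motifs do not overlap each other in the promoters shown. Gata4 and Zfpm2 had no entry.

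Marker lists were read beside these genes. Of all genes measured, 42.5% were lower and 57.5% higher on the CKO array. All 8 principal cell markers and all 8 intercalated cell markers were well above background on both arrays. So were all 10 macrophage and all 6 podocyte markers, so passing this flag does not set collecting duct cells apart from others. Principal cell markers had a median of −0.34, with 7 of 8 lower, and their summed level, in units of the array's 75th percentile, was 808 on the CKO array and 954 on the WT array. A summed level rests mostly on the probes of highest signal, here Fxyd4 with 96858 and Aqp3 with 56776 on the CKO array. Hsd11b2 at −0.61 and Avpr2 were furthest from 0. Intercalated cell markers had a median of 0.85, with 8 of 8 higher. Of these, 6 were at least 1.5-fold higher, against 6.84% of all genes, and 1 at least 2-fold, against 1.5%. Their summed level was 316 on the CKO array and 200.3 on the WT array, and Atp6v1b1 at 1.94 and Dmrt2 at 0.95 were furthest from 0. In bulk RNA, fewer cells of a type and less RNA per cell cannot be told apart, and the part of these shifts in the Gata2 and Gata3 values was not tested.

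Tal1, Lyl1 and Gata1 are usually found in blood and vessel cells, whose markers were read too. Of all genes measured, 42.5% were lower, 6.43% by at least 1.5-fold. At least 1.5-fold lower were 1 of the 9 endothelial and 8 of the 10 macrophage markers measured. Endothelial markers were lower in 9 of 9 measured genes, with a median of −0.31 that came to 0.08 with normexp. They were led by Cdh5 and by Eng at −0.36, with a summed level of 1.39 on the CKO array and 1.73 on the WT array, in which Cdh5 and Pecam1 were not well above background on the CKO array, and Tie1 was not well above background. Cdh5 and Pecam1 could therefore only count as lower, and Cdh5 is the marker counted at 1.5-fold. Pecam1, Cdh5, Kdr, Emcn and Tek are also on the list of GATA targets in blood, mast or endothelial cells. Hdc of the mast cell list and Epor of the erythroid list are on it too, so these lists are not separate readings. Macrophage markers were lower in 10 of 10, with a median of −0.80, led by Itgam at −1.47 and Lyz2 at −1.26, and a summed level of 55.3 on the CKO array and 109.8 on the WT array. Of the erythroid markers, Alas2, Klf1 and Ahsp were not well above background on either array. Hba-a1 at −1.30 and Hbb-bt at −1.52 were read, and the summed level with Epor was 12.7 on the CKO array and 10.5 on the WT array. Of the mast cell markers, Cpa3, Tpsb2, Tpsab1, Mcpt4 and Fcer1a were not well above background on either array, and the other 3 had a median of −1.02 that came to −0.12 with normexp. Of these, Hdc and Ms4a2 were read on the WT array only and have bounds, so no summed level is given. Of the megakaryocyte markers, Gp1ba, Gp9 and Ppbp were not well above background on either array, Pf4 was at −0.72, with 266 on the CKO array and 549 on the WT array, and Itga2b, read on the CKO array only, was higher by at least 0.82. Their part in the Tal1, Lyl1 and Gata1 values was not tested.

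Markers of the remaining cell types were mostly lower on the CKO array too, against 42.5% of all genes lower. At least 1.5-fold lower were 4 of the 6 podocyte and 4 of the 5 fibroblast and pericyte markers measured, against 6.43% of all genes. Podocyte markers were lower in 6 of 6, with a median of −1.07 that came to −0.37 with normexp and −0.71 with the mean over probes. They were led by Wt1 at −1.70 and Nphs1 at −1.23, with a summed level of 1.85 on the CKO array and 3.06 on the WT array. Fibroblast and pericyte markers were lower in 5 of 5 measured, with a median of −0.82 (−0.53 with normexp), led by Pdgfrb at −1.47 and Col1a1 at −0.90, and a summed level of 3.98 on the CKO array and 6.13 on the WT array, with Pdgfra not well above background. Lymphocyte markers had a median of 0.01 over 5 measured, led by Cd8a, at least 10.1-fold lower by a probe with −0.23 at the other probe. Cd4 was not well above background, and no summed level is given, since Cd8a on the CKO array has a bound only.

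**Figure D5:**
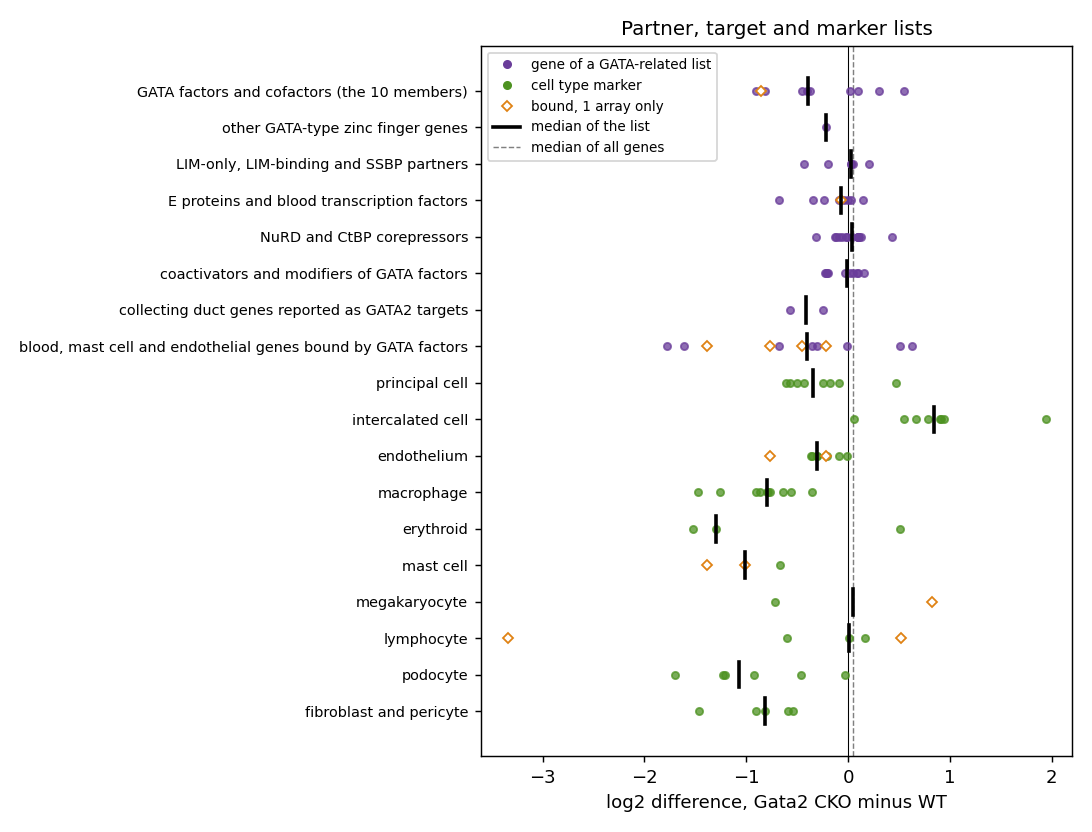
Log2 difference, Gata2 CKO minus WT, of each measured gene of the partner and target lists (purple) and of the cell type marker lists (green), with open diamonds for bounds and black bars for medians. The corepressor and coactivator lists centre near the median of all genes (dashed, 0.05), the intercalated cell list lies to the right of it and the macrophage and podocyte lists to the left.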

How the data were processed

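For each genotype 1 array was deposited, as linear intensity of every spot. Agilent Feature Extraction 10.7.3.1 made these values, with spatial and multiplicative detrending on and surrogate values for dim spots, and mm9 was the build of the probes, per the file headers. The flags of each spot, other values of 0 or 1, are also as deposited. How the authors normalized between arrays is not stated in the labels or headers. Each array has 45018 spots, 43379 of them not controls, 0 saturated; 73 spots of the CKO array and 66 of the WT array had outlier flags and were left out. Log2 of the processed signal minus the array's 75th percentile was averaged over spots of a probe. A probe well above background on 1 array only gave a bound. Such a probe could only count as lower if read on the WT array, and as higher if read on the CKO array. A gene took its brightest measured probe. Symbols came from RefSeq (GRCm38.p6) for 26876 probes. No test was run, since each genotype has 1 array. Folds of 1.5 and 2 were counted. The members and gene lists were chosen with earlier results of these data known. Of partner and target lists, up to 4 genes at least 1.5-fold apart are named, otherwise the widest 2; of marker lists, the 2 furthest from 0. A few marker genes are not reported here. The alternatives were normexp (offset 50), cyclic loess, quantile normalization, scaling on 8 spike-in transcripts or on the median, flagged spots kept, other filters on dim probes and the mean over probes. The steps were tested on simulated data. Normalization used limma 3.58.1 (R 4.3.3). Other steps used pandas 2.3.3 and numpy 2.4.6, and figures matplotlib 3.10.9, under Python 3.11.15. The number of arrays limits the precision.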

Additional observations from a re-analysis of the deposited data

How the results depend on the processing

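Of the 83 values that 14 probes gave under 6 other settings, 67 moved by no more than the spot error and 16 by more. Of these 16, 14 were with spike-in scaling and 2 with normexp. Gata4 and Tal1, the differences of 1.5-fold or more among probes read on both arrays, kept their sign under all 6. The Zfpm2 bounds are not counted in this check of sign, and the bound of −0.86 had no value with normexp. Spike-in scaling took the median of the 12 probes from −0.34 to −0.89, the number below 0 from 7 to 11 and the number at least 1.5-fold lower from 2 to 7, which normexp took to 0. It also took the gene medians to −0.94 for the 10 members, −0.76 for other GATA-type genes, −0.52 for LIM-only and SSBP partners, −0.60 for E proteins and blood factors, −0.51 for corepressors, −0.55 for coactivators, −0.96 for collecting duct targets, −0.95 for blood, mast cell and endothelial targets and −0.50 for all genes. Normexp, whose offset shrinks dim differences, took the members to −0.0060 and the blood, mast cell and endothelial targets to −0.077. Of all probes, 1576 were at least 1.5-fold lower, but 570 with normexp, 9520 with spike-in scaling and 3299 with no filter; 1819 were at least 1.5-fold higher, but 459, 232 and 3990. At 2-fold, 669 were lower, but 230, 2159 and 1639, and 369 higher, but 76, 72 and 1589. No paired analysis was possible because each genotype has 1 array. Signals near background limit Gata4, Tal1 and Zfpm2.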

Other observations

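The genes around Gata2 on chromosome 6 were read as well. Within 500 kb of the Gata2 probes (mm9), 15 other genes or unnamed probes were measured, 13 on both arrays and 2 on the CKO array only. Of these 9 were higher and 6 lower on the CKO array, against 57.5% of all genes higher and 42.5% lower. The 2 read on the CKO array only could only count as higher. The median of all 15 was 0.17, against 0.05 for all genes and −0.37 for Gata2 by the same rule. The nearest, Dnajb8, a chaperone gene of the DnaJ family, was higher by 0.54. Rpn1, a subunit of the enzyme that attaches sugars to new proteins, was at 0.18 and Rab7, a GTPase of late endosomes, at 0.28. The linker histone gene H1f10, read on the CKO array only, was higher by at least 1.16. These genes were named after their values were seen. No gene in this window was as low as Gata2, the lowest being an unnamed probe at −0.26.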
